A study of Homo sapiens with 2 samples.

Results

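The transcripts of the MAP kinase cascade and of its feedback inhibitors were examined for N6-methyladenosine (m6A), the most common internal modification of messenger RNA. Members were taken by gene symbol: kinases named MAP4K, MAP3K, MAP2K or MAPK with a number, and inhibitors named DUSP, SPRY, SPRED or SOCS with a number. Of the 11406 named genes in either deposited list of m6A sites, 61 matched. These were 36 kinases, 24 inhibitors and DUSP8P5, a pseudogene that was kept apart from both classes. Replicate 1 listed 55 of the members and replicate 2 listed 60. RefSeq holds 82 protein-coding symbols that fit the same pattern, and 22 of them had no entry. Among these were 7 kinases, MAPK10 of the JNK family and several MAP4K genes among them, and 13 inhibitors, including DUSP6, DUSP10, SOCS1, SOCS3 and SPRY4. A gene without an entry may lack methylated sites or depth, so nothing was read from its absence.

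The study measured m6A in HEK293T cells, an established line from human embryonic kidney that carries the SV40 large T antigen. Its 1 group was wild-type cells at day 0, grown in DMEM with fetal bovine serum and antibiotics, with 2 replicates and 100 to 200 ng of oligo(dT)-purified mRNA for each library. All RNA was treated by GLORI, in which glyoxal and nitrite turn unmethylated adenosine into inosine, read as G, while m6A stays A. No stimulated, inhibited or untreated cells were analysed here, so the values describe serum-grown cells and show no response of the pathway.

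MAP kinase cascades pass signals from growth factor receptors and stress through tiers of kinases. A MAP4K or a small GTPase acts on a MAP3K, the MAP3K phosphorylates a MAP2K, and the MAP2K phosphorylates a MAP kinase of the ERK, JNK or p38 family or ERK5. The classical DUSP phosphatases remove the activating phosphates from MAP kinases. SPRY and SPRED proteins act near RAS and RAF, and SOCS proteins restrain cytokine receptors, JAK kinases and some growth factor receptors. Many of the inhibitors are induced by the pathway they restrain, from mRNAs that are often short-lived, and m6A is known as a mark that can shorten the life of an mRNA.

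The methylation level of a site is the share of A among its reads of A or G. A site in both lists at the same position and strand is called shared, its level is the mean of both replicates, and the level of a gene averages its shared sites, with a counting standard error (SE). The lists hold only sites with at least 15 reads, 5 A reads and a level of 10%, so a thinly covered gene can show only its more methylated sites. Positions are in GRCh38. Annotated gene ends and biotypes are from RefSeq (GRCh38.p14), while exons and untranslated regions were not used here.

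Bases around a site could be read where it lay in the RefSeq promoter windows, which run from 250 bases before to 50 after an annotated start. For each site, 10 bases on each side are shown, for the 6 shared sites of members in such windows, because they show a difference in sequence between sites at the start of a transcript and sites inside it. The capitals mark the methylated A, in the middle, with 2 bases on each side, and all are written 5′ to 3′ on the strand of the gene.
MAP2K1, chr15:66386902-66386922, plus strand: cccggcctCCAGTccctccca
MAP2K3, chr17:21284701-21284721, plus strand: ggcgctgcCCAGTctgtctcc
MAP2K5, chr15:67542848-67542868, plus strand: tcccgcggGGACTctccgtgg
MAP3K11, chr11:65614174-65614194, minus strand: ggggccagGAACAggcagtct
MAP3K7, chr6:90586981-90587001, minus strand: gggtagtaGGACTgcgcggct
SPRY1, chr4:123398150-123398170, plus strand: tttttctgAGACTtgggaagc

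The sites of MAP2K1 and MAP2K3 lay on the first nucleotide of the annotated gene, and G followed the A in both. Both sites are counted in the levels of their genes, but whether the A kept there was m6A was not tested. The MAP2K1 site had levels of 15% in replicate 1 and 10.9% in replicate 2, and the MAP2K3 site 40.9% and 62.5%. In the other 4 windows the A was followed by C and fitted the known consensus of the m6A writer, which is A, G or T, then A or G, then the methylated A, then C, then A, C or T. The SPRY1 site, 1365 nt inside the annotated gene, had the highest levels of the 6, at 87.3% and 86.8%. The MAP3K11 site, 37 nt from the start, had levels of 50% and 27.8% on 18 reads in each replicate. Counting sites of either list, 10 member sites lay in such windows, and 8 of them fitted the consensus. Among shared sites alone, 4 of the 6 member sites fitted it, beside 422 of all 1067 shared sites in these windows (39.6%). These 1067 include 345 on the first annotated nucleotide, of which 5 did (1.45%). The share among the other sites was therefore above 39.6%.

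Members held 434 sites in replicate 1 and 486 in replicate 2, and 360 of the 560 different sites were shared (64.3%, with 64.6% for the series as a whole). Shared sites were present in 29 kinases, 21 inhibitors and DUSP8P5. The 10 members without one were MAP4K2, MAP3K5, MAP3K8, MAP3K13, MAP3K20, MAP2K6, MAPK4, DUSP4, DUSP18 and SPRED1. Numbers of sites are given per gene and not per length of transcript.

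**Figure D1:**
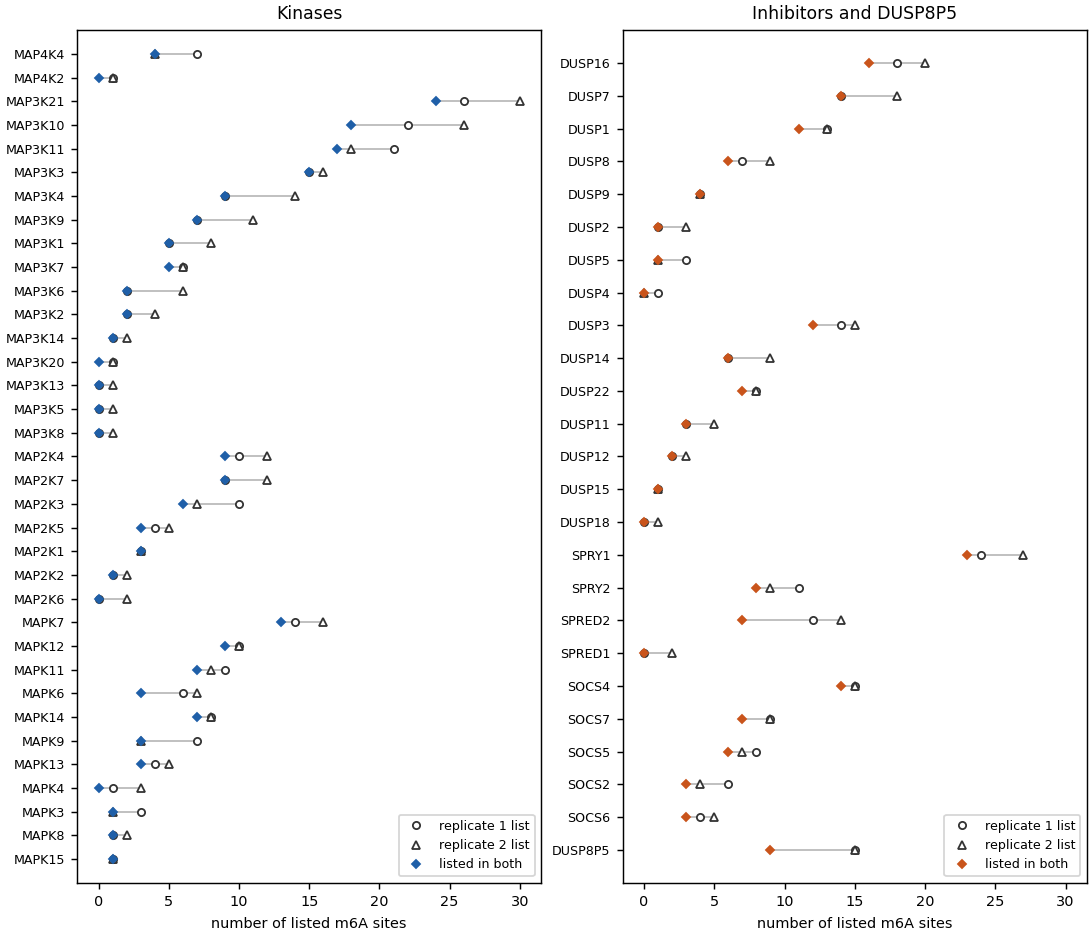
Number of listed m6A sites (horizontal axis) in replicate 1 (circles), in replicate 2 (triangles) and in both (filled diamonds) for 60 of the 61 members, ordered by tier or family. MAP3K21, with 24 shared sites, and SPRY1, with 23, stand furthest to the right, and 10 members have their diamond at 0.

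At the top of the cascade, MAP4K4, a kinase that feeds into JNK signalling, had 4 shared sites, all in the last 10% of its gene. Their mean level was 39.9% in replicate 1 and 38.6% in replicate 2 (39.2% ± 1.81, counting SE). MAP4K2 was listed with 1 site in each replicate, at different positions.

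The MAP3K tier carried the most sites of any tier, 105 in 11 genes. The mixed lineage kinases MAP3K9, MAP3K10, MAP3K11 and MAP3K21 held 66 of these (62.9%). MAP3K21 had the most of all members, 24, and only 2.52% of the 9521 named genes with a shared site had as many or more. Its level was 61.1% in replicate 1 and 60.4% in replicate 2 (60.8% ± 0.737, counting SE). Its sites lay in groups along the gene, with 8 of them within 1 kb of the 5′ end. A run of 6 sites filled 145 nt of chromosome 1 (plus strand) from position 233379453 to 233379597, with levels between 45.4% and 91.6%. The most methylated of its well covered sites, at position 233379214, had levels of 98.8% and 95.7%, and the site 5 nt downstream had 51.4% and 48.9%. Neighbouring adenosines of this gene thus differed in level, and both replicates showed it.

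MAP3K10 had 18 shared sites at 51.5% in replicate 1 and 52.4% in replicate 2 (51.9% ± 1.20, counting SE). Its sites fell at both ends of the gene, 7 within 1 kb of the 5′ end and 6 within 1 kb of the 3′ end. MAP3K11, also called MLK3, had 17 sites with levels of 60.3% and 55.8% (58.1% ± 1.28), of which 8 lay within 1 kb of the 5′ end and the other 9 within 1 kb of the 3′ end. The shared sites of MAP3K11 therefore all lay near an end of the gene. MAP3K9 had 7 sites at a lower level, 45.0% and 39.6% (42.3% ± 2.49). MAP3K3, an activator of the ERK5 branch, differed in layout, since all of its 15 sites lay in the last 10% of the gene. Its levels were 51.3% and 47.8% (49.5% ± 1.31).

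MAP3K4, which acts on the p38 and JNK branches, had 9 shared sites at 56.7% and 55.2% (55.9% ± 1.85) in 2 separate places. A group of 6 lay within 884 nt near the middle of the gene, at chromosome 6, positions 161048918 to 161049801 (plus strand), with levels of 53.0% to 86.9%. The other 3 lay within 1 kb of the 3′ end, with levels of 16.1% to 30.5%. The levels of these groups did not overlap, but the groups were chosen after their values were seen. How many other genes could be split in this way was not counted. Depth moved with this split, at 15 to 38 reads a site in the first group and 32 to 68 in the second, and its part in the difference was not tested. MAP3K7, the TAK1 kinase of cytokine signalling, had 5 sites at 42.0% ± 2.25, and MAP3K1 had 5 at 58.6% ± 3.09. MAP3K2, MAP3K6 and MAP3K14 had 2, 2 and 1.

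MAP2K genes were the best covered tier, with a median deposited gene coverage of 60.4, and the median of their levels was 41.0% over 6 genes. MAP2K4 and MAP2K7, the kinases of JNK, had 9 shared sites each. The 9 sites of MAP2K4 all lay in the last 10% of the gene and had levels of 46.3% in replicate 1 and 46.7% in replicate 2 (46.5% ± 2.03, counting SE). The sites of MAP2K7 had levels of 38.3% and 35.8% (37.0% ± 1.05), but that mean joined very unlike sites. Position 7912548 of chromosome 19 (plus strand) was read as A in 38 of 38 reads in replicate 1 and 36 of 37 in replicate 2, and position 7912555 had levels of 96.0% and 86.7%. The other 7 sites of MAP2K7 lay between 13.2% and 38.0%.

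The upstream kinases of ERK had few shared sites. MAP2K1, or MEK1, had 3 sites, all within 1 kb of the 5′ end, with levels of 29.8% and 35.9% (32.8% ± 2.24, counting SE). MAP2K2, or MEK2, had 1 shared site, at position 4090522 of chromosome 19 (minus strand), with 10.1% and 11.1% on 99 and 108 reads. It is just inside the lists' own limit of 10%. MAP2K5, the kinase of ERK5, resembled MAP2K1 in layout, with its 3 sites inside 70 nt near the 5′ end, at 44.9% ± 2.03. MAP2K3, a kinase of p38, was the most methylated of the tier, with 6 sites at 63.1% and 65.0% (64.1% ± 1.63). Its position 21314641 on chromosome 17 (plus strand) had 98.6% and 91.2%. MAP2K6, the other p38 kinase, had no shared site and 2 sites in replicate 2 alone.

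The mean levels of the MAP kinases themselves ranged from 11.2% to 73.9%. MAPK3 (ERK1) was the best covered member, with a deposited gene coverage of 267 and 313, and still had only 1 shared site. That site, position 30114661 of chromosome 16 (minus strand), had levels of 30.7% on 244 reads and 29.2% on 298 reads. With the sites that replicate 1 alone listed, its 3 sites there averaged 18.5%. The median gene in its decile of gene coverage, taken over all named genes with a shared site, had 2 sites and a level of 31.0%. MAPK7 (ERK5), in contrast, had 13 sites at 61.8% and 61.4% (61.6% ± 1.45, counting SE), in an annotated gene of 5795 nt. None of its sites reached 50 reads in both replicates.

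The p38 genes had different levels from each other. MAPK11 (p38 beta) had 7 sites at 71.9% in replicate 1 and 75.9% in replicate 2 (73.9% ± 2.14, counting SE). MAPK12 (p38 gamma), its neighbour on chromosome 22, had 9 sites at 47.6% and 49.6% (48.6% ± 1.07), all within 424 nt near the 3′ end. MAPK14 (p38 alpha) had 7 sites at 27.1% and 28.9% (28.0% ± 1.34), and MAPK13 (p38 delta) had 3 at 30.7% and 28.0% (29.4% ± 3.81). The 7 levels of MAPK11, 62.3% to 89.9%, and the 3 of MAPK13, 18.9% to 37.7%, did not overlap. Both genes were named for a high or low level, so this separation follows in part from the choice. How often other pairs of genes fail to overlap was not counted. These 2 genes had like deposited coverage, 12.7 and 15.4 in MAPK11 and 12.7 and 13.9 in MAPK13. Their deposited conversion fractions, described below, differed, at 94.3% in both lists for MAPK11 and 97.9% and 98.1% for MAPK13. Sites listed in 1 replicate alone did not keep to this split. Position 36139476 of MAPK13 had 18 A reads of 18 in replicate 2, and all sites of MAPK13 in that list averaged 45.6%. MAPK11 had 3 such sites, at 26.7%, 14.5% and 29.6%. The separation therefore holds for the shared sites only. Levels of MAPK13 and MAPK14 lay within their counting errors of each other.

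Of the JNK genes, MAPK8 (JNK1) had 1 shared site, at 11.5% and 10.8%, and MAPK9 (JNK2) had 3, at 52.4% and 48.8% (50.6% ± 2.61, counting SE). The atypical kinase MAPK6 (ERK3) had 3 sites at 52.6% ± 3.98, and MAPK15 had 1. In this tier MAPK3, MAPK8, MAPK13 and MAPK14 were at or below 30%, while MAPK7 and MAPK11 were above 60%.

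**Figure D2:**
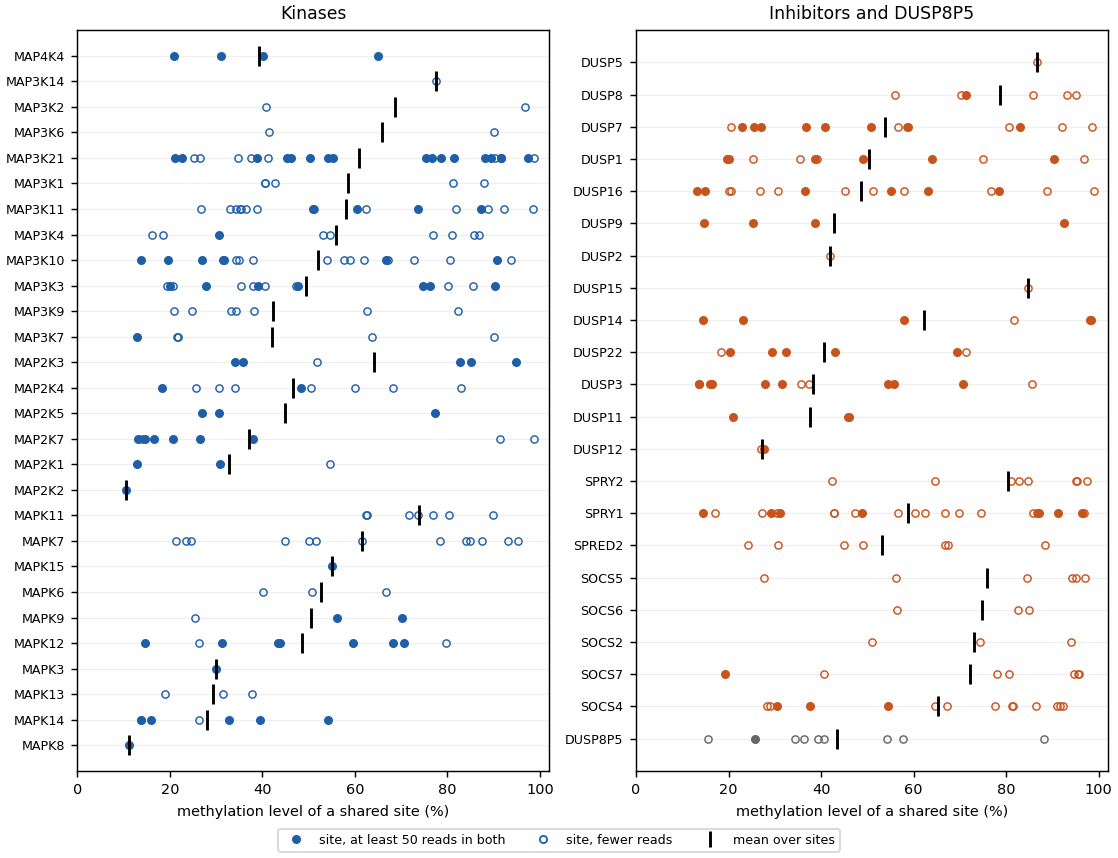
Methylation level of each shared site in percent (horizontal axis) for 28 kinases, 21 inhibitors and DUSP8P5, grouped by tier or family. Filled circles are sites that reach 50 reads in each replicate, open circles sites with fewer, and vertical bars the mean of each gene. MAPK14 keeps to the left, with no site above 54.1%, whereas the sites of most genes with many sites spread from below 30% to above 80%.

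Among the classical DUSP phosphatases, DUSP16, which acts on JNK and p38, had 16 shared sites with levels of 48.6% in replicate 1 and 48.7% in replicate 2 (48.7% ± 1.27, counting SE). Of these, 12 lay in the last 10% of the gene. DUSP7, a cytoplasmic ERK phosphatase, had 14 sites at 51.6% and 55.9% (53.8% ± 1.13). Its 8 sites that reached 50 reads in each replicate averaged 43.2%, and its other 6 averaged 67.8%. DUSP1, the early-induced nuclear phosphatase also called MKP-1, had 11 sites at 49.1% and 51.4% (50.3% ± 1.25), with 4 near the 5′ end and 7 near the 3′ end of its 3100-nt gene. Its position 172768723 on chromosome 5 (minus strand) had 88.9% and 91.9%, while position 172768814, the deepest with 200 and 240 reads, had 50% and 47.9%. All of these genes combined sites near full methylation with sites near 20%.

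DUSP8, a phosphatase of JNK and p38, had a higher level, 79.5% and 77.6% over 6 sites (78.6% ± 2.08, counting SE), and all of them lay within 291 nt. DUSP9 was the best covered inhibitor. Its 4 sites had levels of 41.0% and 44.5% (42.7% ± 1.5), but position 153650166 of chromosome X (plus strand) alone had 89.8% and 95.1%, with 118 and 142 reads. DUSP5 and DUSP2, both nuclear and inducible, had 1 shared site each, at 86.7% and 41.9%, on 15 to 20 reads. The 3 sites of DUSP5 in replicate 1 averaged 53.8%. DUSP4 was listed in replicate 1 alone.

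The atypical DUSP genes are not all MAP kinase inhibitors, as DUSP11 acts on RNA and DUSP12 is a phosphatase with a zinc-binding domain. DUSP3, which can dephosphorylate ERK and JNK, had 12 sites at 39.8% in replicate 1 and 36.5% in replicate 2 (38.2% ± 1.17, counting SE). DUSP22 had 7 sites at 38.7% and 42.5% (40.6% ± 1.52), DUSP11 had 3 at 37.6% ± 2.26 and DUSP12 had 2 at 27.3% ± 2.99. DUSP14 and DUSP15 were higher. DUSP15 had 1 shared site, at 77.8% and 91.7%, on 18 and 24 reads. DUSP14 had 6 sites at 62.6% and 62.0% (62.3% ± 1.30). Position 37512306 of DUSP14 on chromosome 17 (plus strand) had 98.2% and 98.5%, and 48 nt upstream position 37512258 had 13.3% and 15.6%. The median level of the 6 atypical genes was 39.4%, against 50.3% for the 7 classical ones.

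Sprouty genes, whose products block RAS and RAF activation downstream of growth factor receptors, were among the most heavily marked inhibitors. SPRY1 had 23 shared sites in a gene of 6966 nt, and 2.99% of genes had as many or more. Its level was 57.9% in replicate 1 and 59.7% in replicate 2 (58.8% ± 1.01, counting SE). A run of 8 sites filled 257 nt on chromosome 4 (plus strand), positions 123401993 to 123402249, with levels between 42.8% and 96.8%. In that run, position 123402180 had 96.1% and 96.5% (95% Wilson interval on the summed reads, 92.2% to 98.3%). SPRY2 had 8 sites with a mean level of 76.6% and 84.3% (80.4% ± 1.80). The mean of both replicates was the highest of any member with at least 3 shared sites. In replicate 1, DUSP8 and SOCS6 were higher, at 79.5% and 76.7%. Over all sites of a single list, SPRY2 averaged 69.4% in replicate 1 and 77.0% in replicate 2. None of the SPRY2 sites had 50 reads in both replicates. SPRED2, of the related SPRED family, had 7 sites, all in the last 10% of the gene, at 57.6% and 48.5% (53.1% ± 2.53), and 12 more sites in 1 list only.

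The 5 listed SOCS genes had levels from 65.2% to 75.8% at shared sites. SOCS4 had 14 shared sites within 921 nt, at 63.4% in replicate 1 and 67.1% in replicate 2 (65.2% ± 1.29, counting SE). SOCS5, which restrains EGFR signalling, had 6 sites at 75.9% and 75.7% (75.8% ± 1.92). SOCS7 had 7 at 72.6% and 71.7% (72.1% ± 1.71), SOCS6 had 3 at 74.7% ± 3.29, and SOCS2, a regulator of growth hormone signalling, had 3 at 73.1% ± 3.03. Over all sites of a single list, SOCS2 averaged 47.0% in replicate 1 (6 sites) and 60.3% in replicate 2 (4 sites). Of the 33 shared SOCS sites, 17 were at 80% or above (51.5%). SOCS genes were thinly covered, with a median gene coverage of 18.2. The 4 SOCS sites that reached 50 reads in each replicate had a median level of only 34.1%. Of these, 3 were in SOCS4, where they averaged 40.9% beside 71.9% for its other 11 sites. SOCS1 and SOCS3, the family members best known as cytokine-induced, were not in either list.

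The kinases and inhibitors were then set side by side as classes. Kinases had a median of 5 shared sites per gene (quartiles 3 and 9) and inhibitors 6 (3 and 11), with 4 (2 and 8) over all genes. The median level per gene was 49.5% in kinases (quartiles 37.0% and 58.6%), 58.8% in inhibitors (42.7% and 74.7%) and 46.6% over all genes (33.3% and 58.8%). The quartile ranges of the classes overlapped. The single labelled group gives no replicates of a class and genes are not replicates, so no test was made between them. Shared sites at 80% or above numbered 41 of 196 in kinases (20.9%) and 49 of 155 in inhibitors (31.6%), against 20.1% of the sites of all named genes. The kinase share was near that background, and the inhibitor share was above it. A few genes gave much of each class, since the 4 genes with the most sites held 37.8% of the kinase sites and 43.2% of the inhibitor sites.

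Depth differed between the classes, with a median gene coverage of 36.8 in kinases, 23.1 in inhibitors and 31.9 over all genes. Each gene was therefore set against the median of its coverage decile. In number of shared sites, 16 of 29 kinases (55.2%) and 14 of 21 inhibitors (66.7%) were above that median, against 45.1% of all genes. In level, 14 of 29 kinases (48.3%) and 14 of 21 inhibitors (66.7%) were above it, against 50% of all genes. The inhibitor count was 12 of 22 (54.5%) without replicate 2, near the share of all genes, and 8 of 13 (61.5%) at 50 reads. It was 17 of 23 (73.9%) without replicate 1 and 17 of 24 (70.8%) with sites of either list. At 30 reads it was 12 of 17 (70.6%), and at a level of at least 20% it was 14 of 21 (66.7%). Inhibitors above the median level included 5 of 5 SOCS genes, 2 of 2 SPRY genes and 5 of 7 classical DUSP genes, but 2 of 6 atypical DUSP genes. Among kinases the count was 8 of 11 for MAP3K, 1 of 6 for MAP2K and 5 of 11 for MAPK.

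Restricting the sites to those with at least 50 reads in both replicates narrowed the contrast. At that depth the median level per gene was 36.3% over 20 kinases, 42.7% over 13 inhibitors and 38.0% over all genes. The median over sites was 39.5% for the 81 kinase sites and 37.6% for the 59 inhibitor sites, which is the opposite order. Over all shared sites the medians were 45.1% and 56.7%. The order of the classes at the higher depth thus differed between the median over genes and the median over sites. Without the atypical DUSP genes, a choice made after seeing the data, the median inhibitor level was 65.2%.

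**Figure D3:**
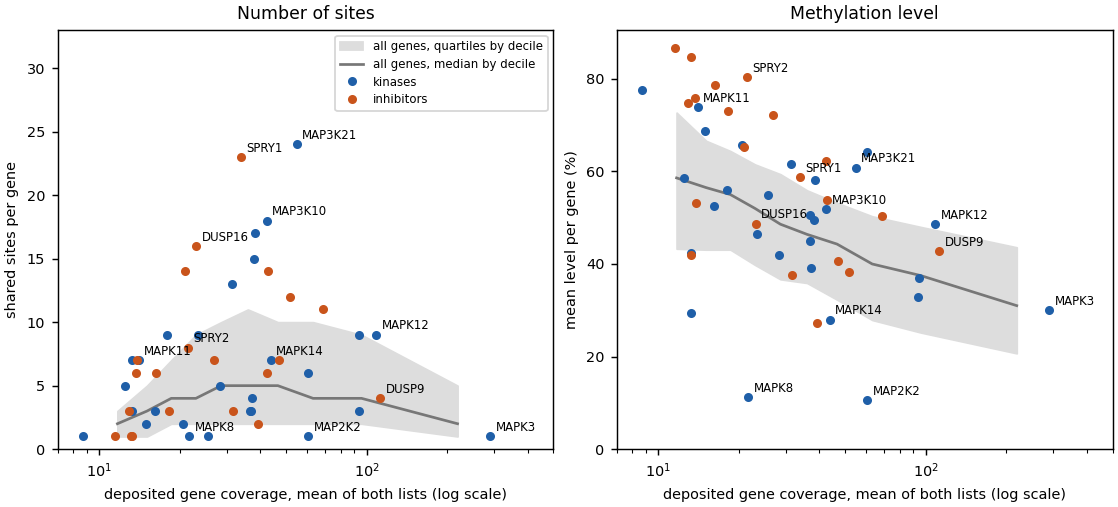
Number of shared sites per gene (left) and mean level per gene in percent (right) against the deposited gene coverage on a log scale, for 28 kinases (blue) and 21 inhibitors (orange). The grey line and band are the median and quartiles of all named genes in each coverage decile. The level of all genes declines with coverage, SPRY2 and MAPK11 lie above the band, and MAPK8 and MAP2K2 lie below it.

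The deposited conversion fraction of a gene also differed between members, and an unconverted A counts as methylated. It was 94.3% in both lists for MAPK11 and ranged from 94.0% to 95.6% in SPRY1, SPRY2, SOCS5 and SOCS6, while it was 98.4% and 98.3% for MAPK8. SOCS7, with a level of 72.1%, had conversion fractions of 97.8% and 98.2%. The part of the conversion fraction in the levels was not tested. Over all members with a shared site this fraction stayed between 94.0% and 98.4%.

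Members resembled other genes in where their sites lay, with differences between the classes. Of the 351 shared sites of kinases and inhibitors, 45.0% lay in the last 10% of their gene, against 44.1% over all protein-coding genes. The share was 52.6% in kinases and 35.5% in inhibitors. Sites of 1 gene are not independent, and MAP3K3, MAP3K21 and MAP2K4 supplied 36 of the 103 kinase sites there, and DUSP16, DUSP22 and SPRED2 26 of the 55 inhibitor sites. Inhibitors had 28.4% of their sites between 70% and 80% of the gene, where all protein-coding genes had 8.25%. SOCS4, SPRY1 and DUSP7 supplied 30 of those 44 sites, so this peak is that of a few genes. Kinases had 17.9% of their sites within 1 kb of the 5′ end, against 8.39% in inhibitors and 9.21% over all, and MAP3K10, MAP3K11 and MAP3K21 supplied 23 of those 35. Gene lengths differed too, with a median span of 58941 nt in kinases, 18798 nt in inhibitors and 30532 nt over all protein-coding genes, so equal shares of a gene are unequal distances.

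**Figure D4:**
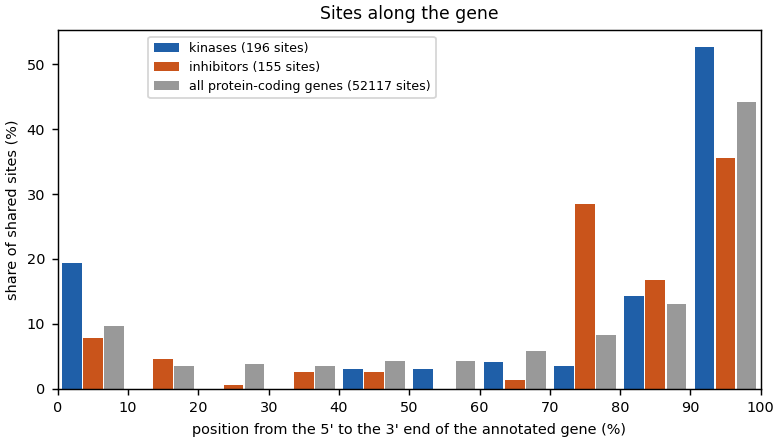
Share of shared sites in percent (vertical axis) in each 10% of the annotated gene from the 5′ to the 3′ end (horizontal axis), for kinases (blue), inhibitors (orange) and all protein-coding genes (grey). The last 10% holds the most sites in each group, 52.6%, 35.5% and 44.1%, and inhibitors have a second peak of 28.4% between 70% and 80%.

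Neighbouring sites were close to each other. The median distance between adjacent shared sites of a gene was 76 nt in kinases, 88.5 nt in inhibitors and 90 nt over all genes, and 56.9%, 57.5% and 53.2% of distances were 100 nt or less. All 483 member sites in the 51 genes whose strand the promoter table gives lay on the strand of the gene.

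The replicates gave closely similar levels at shared sites. Across the 360 shared member sites, which are not independent replicates, Pearson's r was 0.940 and Spearman's rho 0.933, and the median absolute difference was 5.29 points. Fisher's exact test with Benjamini-Hochberg adjustment over all 60462 shared sites called 0% of sites, and 0 member sites. The unadjusted p-value was under 0.05 at 9 member sites (2.50%), against 3.06% of all sites. A chi-square test scaled by the dispersion also called 0 member sites after adjustment, with 22 member sites (6.11%) and 5.01% of all sites at an unadjusted p-value under 0.05. The largest difference was at position 56881990 of MAP3K1, with 62.5% and 100%. The mean chi-square of the shared member sites was 0.994, near what sampling noise alone gives, and the replicates were counted as 1 sample. A site must pass the limits of both lists to be shared, which leaves out some large differences beforehand. The comparison therefore cannot show that the replicates differ by sampling noise alone. Member sites listed in 1 replicate only were weaker or thinner, with a median level of 20.8% for 74 sites of replicate 1 and 24.1% for 126 sites of replicate 2, at 29.5 and 27.5 reads.

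**Figure D5:**
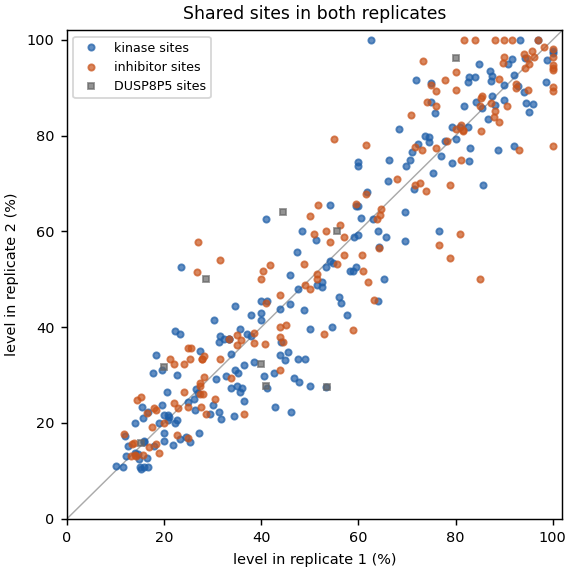
Level of each of the 360 shared member sites in replicate 2 (vertical axis, percent) against replicate 1 (horizontal axis, percent), for kinases (blue), inhibitors (orange) and DUSP8P5 (grey squares), with the line of equal levels. Points follow the line with a median difference of 5.29 points between replicates, and the 9 DUSP8P5 sites have a median difference of 13.2 points.

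The pseudogene DUSP8P5 had a larger median difference between replicates than the kinase sites (5.44 points) or the inhibitor sites (5.04 points), although 0 of its sites were called. Single members with few sites differed as much, such as MAP3K14, whose 1 shared site differed by 16.1 points. It shared 9 of 21 sites (42.9%), at a level of 42.0% and 45.1% (43.5% ± 1.99, counting SE), and its median difference between replicates was 13.2 points. Its sequence relative DUSP8 shared 6 of 10 sites, at 78.6%. The sources used here do not give how reads that fit both copies were assigned, so the sites of DUSP8P5 and DUSP8 are uncertain.

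Other genes of the pathway were read from lists of the same kind. Of 17 receptors and adaptors, 16 had shared sites, with a median of 5 sites and 52.3%, and 12 were above and 4 below their decile in level. IGF1R, the receptor for insulin-like growth factor 1, had 46 sites at 50% ± 0.822 (counting SE), more than any member. Of 17 RAS, RAF and scaffold genes, 12 had shared sites, with a median of 6 sites and 46.7%, and 4 were above and 8 below in level. ARAF, a RAF kinase, had 6 sites at 59.2% ± 0.769, and NF1, which switches off RAS, had 11 at 47.3% ± 1.77. Of 19 targets of MAP kinases, 18 had shared sites, with a median of 5 sites and 45.1%, and 9 were above and 9 below in level. Of 10 cytokine partners of the SOCS proteins, 8 had shared sites, with a median of 2 sites and 43.5%, and 4 were above and 4 below in level. In number of sites, 1 of these partners was above its decile and 7 were below, while 45.1% of all genes were above. The counts above and below in number of sites were 8 and 3 for receptors and adaptors. They were 7 and 5 for RAS, RAF and scaffold genes, and 11 and 6 for targets of MAP kinases. STAT3 had 1 shared site, at 11.7% ± 2.92. The median level of each of these lists was below that of the inhibitors, but against the coverage deciles the receptors and adaptors, with 75% of genes above in level, were higher than the 66.7% of the inhibitors. No test was made between them.

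Of markers of the line, PAX2, LIN28B, VIM and NEFM had shared sites, and KRT8 and KRT18 were each listed in 1 replicate. The markers PTPRC, ALB, HBB and COL1A1 of leukocytes, hepatocytes, erythroid cells and fibroblasts had no listed site, which sets no limit on their level.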

How the data were processed

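GLORI libraries of 2 HEK293T replicates were analysed from the authors' deposited lists of m6A sites. Per the file headers, each site has a count of A or G reads, a count of A reads and their ratio, a deposited fraction used as the methylation level, with a p-value, an adjusted p-value and, for each gene, a conversion fraction and a coverage. Per the submitters' processing notes, Trim Galore 0.6.6, STAR, Bowtie, SAMtools and GRCh38 were used, while the sources used here do not give the site caller, the gene annotation, how gene coverage was computed or any use of molecular identifiers. Listed sites held 5221660 reads in replicate 1 and 6306522 in replicate 2, at a median of 40 and 42 reads a site, and these totals are not library depths. The deposited p-values were not used as tests.

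Members and lists were chosen with earlier results of these data known. Named members are, in each class, the 8 with the most shared sites, the 4 highest and 4 lowest in level with at least 3 shared sites, and the member with the most sites in each subfamily. Other members that are singled out, such as MAPK3, MAPK8, MAP2K2, MAP2K5 and DUSP14, and the middle and end groups of MAP3K4, were chosen after their values were seen. Levels were averaged over replicates and shared sites. Counting SE and 95% Wilson intervals cover counting error only, since reads are not shown to be separate molecules. The labels do not say that the replicates were separate cultures. Fisher's exact test, two-sided, compared A and G counts of the replicates at each shared site, with Benjamini-Hochberg adjustment over all sites at 0.05, and was tested on simulated data. Genes were compared with the median of their decile of mean deposited gene coverage. Sequences and gene ends came from RefSeq (GRCh38.p14), in which all 61 members were found by symbol. Alternatives were other minimums for reads and level, sites of either list, each replicate alone, narrower coverage groups and the scaled chi-square test. Python 3.11.15, pandas 2.3.3, numpy 2.4.6 and SciPy 1.17.1 were used. The values of 1 member with shared sites are not reported here by name, and it is left out of the plots by gene, but it is counted in the class totals.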

Additional observations from a re-analysis of the deposited data

How the results depend on the processing

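Numbers and levels of sites depend on the depth asked for. The median number of shared sites per gene in kinases was 4 at 30 reads, 3.5 at 50 reads, 4 at a level of at least 20% and 7 with sites of either list. In inhibitors it was 4 at 30 reads, 5 at 50 reads, 9 with sites of either list and 7 without the atypical DUSP genes, a choice added after seeing the data. The median level per gene in kinases was 42.1% at 30 reads, 36.3% at 50 reads, 52.8% at a level of at least 20% and 41.8% with sites of either list, where all genes had 41.3%, 38.0%, 53.6% and 40.2%. In inhibitors it was 48.0%, 42.7%, 62.9% and 49.8% in the same order, and 65.2% without the atypical DUSP genes. With 1 replicate left out, kinases had 5.5 to 6.5 sites at 44.1% to 45.7%, and inhibitors 7.5 to 8 sites at 51.8% to 55.5%. At 50 reads, 9 of 20 kinases (45%) were above their decile in number of sites, with 41.6% of all genes. The share of member sites in the last 10% of the gene was 52.1% at 30 reads and 60.0% at 50 reads. The share over all protein-coding genes was not computed at these depths, so whether members differ from it there is not known. In every setting run for both classes, the median level per gene was higher in inhibitors than in kinases. The count of inhibitors above their decile in number of sites stayed within 1.5 times under the settings run for it, and the count of differing sites stayed at 0. The count of inhibitors above their decile in level did not stay within 1.5 times, as it fell from 14 of 21 to 8 of 13 with 50 reads. Fewer genes were left there, and the share was 61.5% (kinases 9 of 20, 45%) after 66.7%. This share was 54.5% (12 of 22) without replicate 2 and 73.9% (17 of 23) without replicate 1. Sites per kb of exon were not run, because exons were not used here. No paired analysis was possible because the series has 1 group. At 15 reads only levels of 33.3% or more can be listed.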
